A study of Rattus norvegicus with 12 samples.

Results

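Proteinase K was added to an RNase A treatment of mitochondria captured on magnetic beads, and the RNA that remained was compared with that of captured mitochondria given RNase A alone. The comparison holds 6 of the 12 libraries of the study, chosen by their titles: 3 libraries labelled RNase+ProK, here IP_RNase_ProK, against 3 labelled RNase, here IP_RNase. All 12 libraries came from hindlimb muscle (gastrocnemius in the design text) of 1 wild-type male Wistar Kyoto rat aged 14 weeks, whose homogenate was pooled and divided into aliquots. Both groups were immunoprecipitated with magnetic beads, both received RNase A, and 40 ng of RNA from each went into a ribosomal RNA-depleted total RNA library after on-column DNase I digestion. The other 2 groups, used here only for context, are mitoplast_RNase (mitoplasts, mitochondria without their outer membrane, made from captured organelles and treated with RNase A, from 40 ng) and crude_RNase (mitochondria pelleted by differential centrifugation and treated with RNase A, from 6.3 ng). The sources used here do not give enzyme amounts, times or the order of the treatments. All replicates are aliquots from 1 animal. The errors and p-values therefore cover the spread among aliquots, which may be technical, and not the spread among animals.

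The mitochondrial chromosome is transcribed on both strands into long precursors, which are cut, mostly at the tRNAs, into the mRNAs and rRNAs used inside the matrix. RNase A cuts accessible single-stranded RNA and does not pass an intact membrane, while proteinase K digests proteins that are exposed. The pair is therefore used to separate RNA that lies on the surface of an organelle, or is covered there by proteins, from RNA enclosed by its membranes. Because RNA input was set equal and counts are relative, fewer organelles, less RNA per organelle and more material from outside the organelles cannot be told apart.

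The 6 libraries held 3325430 to 4563254 counts, and 26483 genes (86.7% of 30560) passed the filter on low counts. The chi-square per degree of freedom between replicates was 1.24 to 1.80 among IP_RNase_ProK and 2.02 to 7.31 among IP_RNase, above sampling noise in each pair. IP_RNase 3 stood apart: its 37 mitochondrial genes took 10.9% of its counts, against 3.33% in IP_RNase 2. The median of the mitochondrial mRNAs, some single mRNAs and the 2 most counted mitochondrial rRNA genes are therefore also given without it. Shares and ratios of mitochondrial RNA are given by library. Counts on muscle genes were found in every library, as they were on most genes. In each of the 6 libraries 96.2% to 96.5% of the 30560 genes had counts. The 44 sarcomere genes took 0.514% to 0.615% of counts in the 6 libraries and 0.785% to 1.51% in crude_RNase. Single genes differed in this respect: Acta1, the skeletal muscle actin, stood at 27.1 ± 8.71 CPM in IP_RNase and 27.4 ± 2.82 CPM in IP_RNase_ProK, against 1755 ± 194 CPM in crude_RNase (SD, n = 3 each), where CPM is counts relative to a fixed library total, scaled between libraries by TMM, a trimmed mean of ratios. Olfactory receptor genes, sensors known mainly from the nose, had a median of 42 counts per gene and library in the 6 libraries, and the 36 nuclear genes of respiratory complex I had 54. The median nuclear gene tested had 86 to 120 counts per library.

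All 13 mitochondrial mRNAs fell with proteinase K. Their median log2 fold change was -1.21, from -1.48 (Mt-co3) to -0.95 (Mt-atp8), while the median of all genes tested was -0.0025. The fit called 37 of the 26483 genes at an adjusted p below 0.05 (0.14%, edgeR quasi-likelihood test, Benjamini-Hochberg), of which 29 fell (0.11%) and 8 rose (0.0302%). The 29 that fell were the 13 mitochondrial mRNAs, 12 genes that the deposited table leaves without a name, 2 known only by a clone name, 1 copy of the U3 small nucleolar RNA and Tnc. Separate CPM ranges in the 3 and 3 libraries, with proteinase K lower, occurred for 8.27% of all genes and for 12 of the 13 mitochondrial mRNAs.

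**Figure D1:**
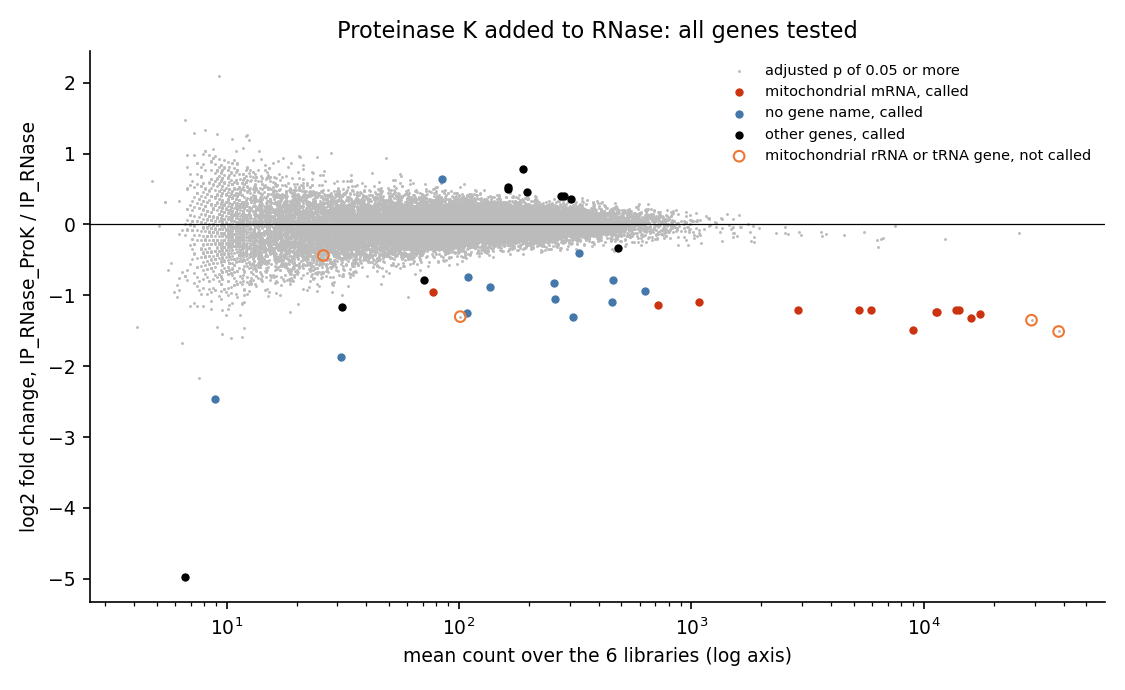
Log2 fold change of IP_RNase_ProK over IP_RNase (y axis) against the mean count of the 6 libraries (x axis, log scale) for the 26483 genes tested. Red points are the 13 mitochondrial mRNAs, blue points the 13 called genes without a name, black points other called genes and open circles the 4 tested mitochondrial rRNA and tRNA genes, and the mitochondrial mRNAs lie between -1.48 and -0.95.

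Complex III has a single mitochondrial subunit, cytochrome b, encoded by Mt-cyb. It stood at 4313, 2877 and 6077 CPM in IP_RNase 1 to 3 and at 1639, 1819 and 2270 CPM in IP_RNase_ProK 1 to 3, and its log2 fold change was -1.21 ± 0.20 (SE, edgeR adjusted p = 2.46e-04). Every proteinase K library lay below every library without it.

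Mt-co1, Mt-co2 and Mt-co3 encode the catalytic core of complex IV, cytochrome c oxidase. Mt-co3 stood at 2875, 1855 and 4260 CPM in IP_RNase and at 884, 1012 and 1321 CPM in IP_RNase_ProK, a log2 fold change of -1.48 ± 0.20 (SE, edgeR adjusted p = 2.94e-06). Mt-co1 stood at 4424, 2944 and 8038 CPM and at 1615, 1946 and 2586 CPM, a change of -1.33 ± 0.23 (SE, edgeR adjusted p = 7.79e-04). IP_RNase 3 was the highest library and IP_RNase 2 the lowest of its group for each of the 3 genes, and none of the groups overlapped. Mt-co2 changed by -1.20 ± 0.18 (SE, edgeR adjusted p = 5.61e-05).

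The 7 Mt-nd genes encode core subunits of complex I, the NADH dehydrogenase at which electrons enter the chain. Mt-nd5 stood at 5083, 3252 and 8268 CPM in IP_RNase and at 1884, 2319 and 2713 CPM in IP_RNase_ProK (log2 fold change -1.26 ± 0.22, SE, edgeR adjusted p = 6.78e-04). Mt-nd6, the only mRNA of the set encoded on the opposite strand, stood at 880, 502 and 1305 CPM and at 345, 412 and 409 CPM (-1.21 ± 0.18, SE, edgeR adjusted p = 2.46e-05). The 7 genes changed by -1.26 (Mt-nd5) to -1.10 (Mt-nd4l), and the message from the opposite strand thus lay within the range of the rest. The groups did not overlap for any of the 7.

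Mt-atp6 and Mt-atp8 encode subunits of the proton channel side of ATP synthase, complex V, and share 1 overlapping transcript. Mt-atp6 stood at 1732, 1083 and 2756 CPM in IP_RNase and at 661, 803 and 961 CPM in IP_RNase_ProK, a log2 fold change of -1.20 ± 0.19 (SE, edgeR adjusted p = 1.71e-04). Mt-atp8 stood at 20.5, 11.9 and 34.8 CPM and at 10.7, 13.5 and 11.1 CPM, a change of -0.95 ± 0.20 (SE, edgeR adjusted p = 0.0204). IP_RNase_ProK 2 was above IP_RNase 2 for Mt-atp8, the only overlap among the 13. As the reading frames of the pair overlap, reads of the shared stretch may have been split or dropped by the counting.

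**Figure D2:**
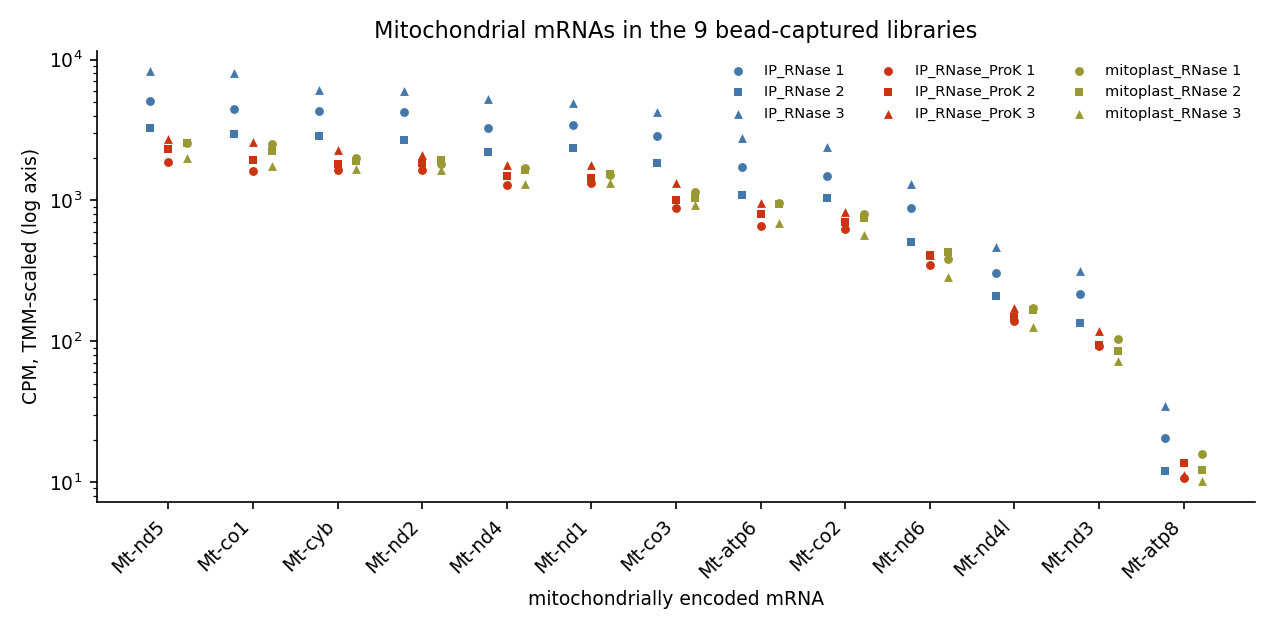
CPM (y axis, log scale) of the 13 mitochondrial mRNAs (x axis) in each IP_RNase, IP_RNase_ProK and mitoplast_RNase library, 3 libraries per group with a marker shape per replicate number. The proteinase K points lie below all IP_RNase points for 12 mRNAs, Mt-atp8 being the exception, and beside the mitoplast points.

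The size of the fall depended on which libraries without proteinase K were used. Without IP_RNase 3 the median of the 13 mRNAs was -0.85 and 12 of them passed the test, with Mt-co3 at -1.14 and Mt-atp8 at -0.48 (edgeR adjusted p = 0.602). Without IP_RNase 2, the lowest of its group, the median was -1.47. Mt-co1 missed the threshold without IP_RNase_ProK 1 (edgeR adjusted p = 0.0506) and when only genes with a mean of at least 50 counts were tested (edgeR adjusted p = 0.0695), as did Mt-nd5 in the latter (edgeR adjusted p = 0.0607). Mt-nd3 missed it with DESeq2 (adjusted p = 0.0516), and Mt-atp8 in 6 of its 14 alternatives.

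Within the mitochondrial mRNA pool the proportions shifted little. Mt-co3 took 8.89%, 8.76% and 8.51% of the mRNA counts in IP_RNase and 7.28%, 7.21% and 7.74% in IP_RNase_ProK, and the groups did not overlap. Mt-nd4, Mt-nd4l and Mt-nd3 took a slightly larger share in each proteinase K library, for instance 0.947%, 0.982% and 0.937% against 1.15%, 1.06% and 1.01% for Mt-nd4l. These 4 of the 13 shares were the ones without overlap. Each had an exact two-sided permutation p of 0.1, the smallest that 3 against 3 allows, and an adjusted p of 0.325 over the 13, so none passed. The order for Mt-nd4 turned when rRNA and tRNA counts were added to the total, with a difference of -0.0869 percentage points in place of a gain.

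The mitochondrial rRNAs, which form the core of the organelle's ribosome, varied widely between the IP_RNase libraries. The library kit depletes ribosomal RNA, so their counts are what that step left. The gene ENSRNOG00000043866, the most counted of the list of mitochondrial rRNAs and tRNAs, stood at 7114, 3899 and 26974 CPM in IP_RNase and at 2605, 4867 and 5864 CPM in IP_RNase_ProK. ENSRNOG00000030478, the next, stood at 4799, 2487 and 20824 CPM and at 2016, 4297 and 4710 CPM. IP_RNase 3 alone was high, and the other IP_RNase libraries lay among or close to the proteinase K libraries.

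The log2 fold changes were -1.51 ± 0.36 for ENSRNOG00000043866 (SE, edgeR adjusted p = 0.0654) and -1.35 ± 0.37 for ENSRNOG00000030478 (SE, edgeR adjusted p = 0.155), and neither passed the test in the fit of 12 libraries. Both passed with the same direction in the fit of the 6 libraries alone (edgeR adjusted p = 8.08e-04 and 0.00796), with the 9 captured libraries and with no filter on low counts. Without IP_RNase 3 they were -0.31 and 0.013. Counts of these 2 genes relative to those of the 13 mRNAs were 0.369, 0.302 and 0.955 in IP_RNase, 0.380, 0.653 and 0.620 in IP_RNase_ProK, and 1.09, 0.840 and 0.667 in mitoplast_RNase. Of the 24 mitochondrial rRNA and tRNA genes only 4 passed the filter on low counts, and the 2 named held between 99.6% and 99.9% of the counts of the list in each of these 9 libraries. ENSRNOG00000029145, another of the 4, stood at 32.2 ± 16 CPM in IP_RNase and 13.3 ± 3.75 CPM in IP_RNase_ProK (SD, n = 3 each) with separate ranges, a log2 fold change of -1.30 that did not pass in the fit of 12 libraries (edgeR adjusted p = 0.0987) but did in that of 6 (edgeR adjusted p = 2.71e-07).

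As shares of all counts, the 13 mRNAs took 3.85%, 2.56% and 5.59% in IP_RNase and 1.49%, 1.71% and 2.07% in IP_RNase_ProK. The means were 4.0% ± 1.52 and 1.76% ± 0.294 (SD, n = 3 each), and the groups did not overlap (exact two-sided permutation p = 0.1, the smallest possible, adjusted p = 0.3 over 6 gene classes). The rRNA and tRNA genes took 2.51% ± 2.47 and 0.991% ± 0.375, with overlap (exact permutation p = 0.4). Nuclear protein-coding genes took 74.5% ± 3.11 and 78.3% ± 0.604, without overlap (exact permutation p = 0.1, adjusted p = 0.3).

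**Figure D3:**
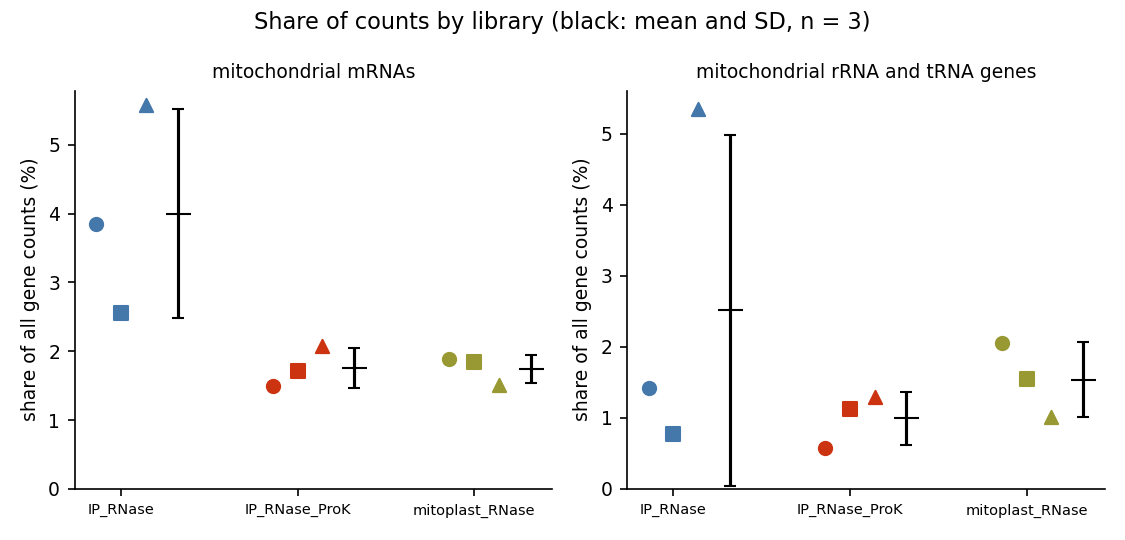
Share of all gene counts (y axis, percent, from 0) of the 13 mitochondrial mRNAs and of the 24 mitochondrial rRNA and tRNA genes in each library of the 3 captured groups (x axis), with a marker shape per replicate number and the mean and SD in black (n = 3). The mRNA shares of IP_RNase_ProK, 1.49% to 2.07%, lie below the IP_RNase shares of 2.56% to 5.59%, while IP_RNase 3 alone is high for the rRNA and tRNA genes.

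The 12 unnamed genes that fell changed by a median of -1.0, from -2.46 to -0.40. The deposited table does not pair their identifiers with names, and they were 0.218% of the 5498 unnamed genes tested. ENSRNOG00000069946, the gene with the smallest p of the whole comparison, stood at 149, 125 and 144 CPM in IP_RNase and at 68.5, 60.2 and 66.4 CPM in IP_RNase_ProK, a log2 fold change of -1.10 ± 0.10 (SE, edgeR adjusted p = 3.69e-11). ENSRNOG00000068515 stood at 109, 81.4 and 105 CPM and at 39.5, 31.3 and 49.4 CPM, a change of -1.30 ± 0.13 (SE, edgeR adjusted p = 4.07e-09). Both kept the call in every one of the 15 alternative analyses.

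Taken as a sum, the unnamed genes that fell differed from the mitochondrial mRNAs in how they varied between replicates. Together the 12 took 0.118%, 0.106% and 0.117% of nuclear counts in IP_RNase and 0.0604%, 0.0580% and 0.0604% in IP_RNase_ProK. Against the same nuclear counts, the mitochondrial mRNAs amounted to 4.06%, 2.65% and 6.27% and to 1.52%, 1.76% and 2.14%. IP_RNase 3, high for mitochondrial mRNA, was thus not the highest for the sum of the unnamed genes. This sum was 0.111% to 0.150% in crude_RNase, where the mitochondrial mRNAs amounted to 39.0% to 61.7%. Single members varied in both directions. From IP_RNase 2 to IP_RNase 3, ENSRNOG00000066035 went from 27.4 to 39.2 CPM and ENSRNOG00000062889 from 78.1 to 73.1 CPM. The 12 were selected as called lower in these same libraries, and such a selection favours genes with little spread between replicates. Their sums, and the contrast in spread with the mitochondrial mRNAs, are therefore only a description.

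**Figure D4:**
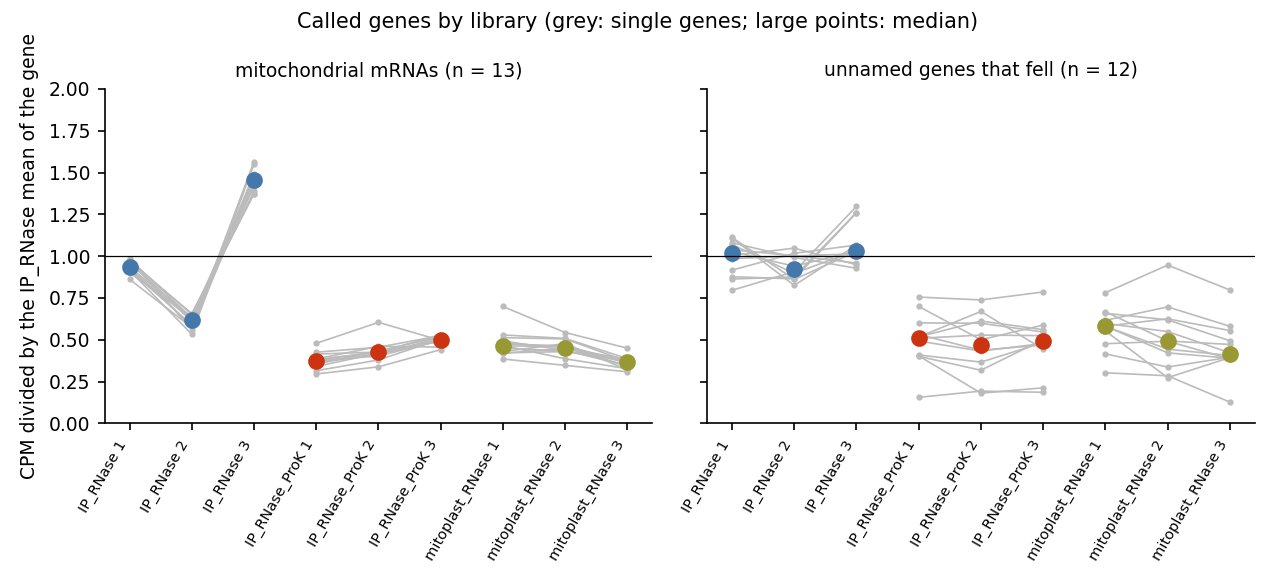
CPM of each called gene divided by its own IP_RNase mean (y axis, linear from 0) in the 9 captured libraries (x axis), for the 13 mitochondrial mRNAs and the 12 unnamed genes that fell. Grey marks are single genes and large points the median per library. The medians of IP_RNase 2 and 3 differ widely for the mitochondrial mRNAs and less for the unnamed genes, which were selected by the test in these libraries.

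The remaining genes that fell were few. ENSRNOG00000055846, known by a clone name, stood at 19.1, 21.2 and 19.5 CPM in IP_RNase and at 10.4, 10.2 and 14.3 CPM in IP_RNase_ProK (log2 fold change -0.78, edgeR adjusted p = 0.0153). Tnc, which encodes the extracellular matrix protein tenascin C, stood at 119, 115 and 120 CPM and at 96.5, 92.1 and 93.8 CPM, a change of -0.33 ± 0.08 (SE, edgeR adjusted p = 0.0482). For both genes every proteinase K library was below every library without it. ENSRNOG00000068470, 1 of many copies of U3, the small nucleolar RNA that guides processing of the ribosomal RNA precursor, changed by -1.16 ± 0.27 (SE, edgeR adjusted p = 0.0475). ENSRNOG00000047877 was called on 21, 0 and 17 counts in IP_RNase against 1, 0 and 0 in IP_RNase_ProK, so IP_RNase 2 had none, and mitoplast_RNase had 31, 2 and 0.

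The 8 genes that rose were small in effect, and their calls did not all hold when a single library was left out. Each fold change kept its sign in those fits, for instance 0.34 to 0.38 for Atcay and 0.41 to 0.61 for Coasy. A copy of 5.8S rRNA, ENSRNOG00000070263, an RNA of the large subunit of the cytosolic ribosome, stood at 26.6, 27.6 and 35.5 CPM in IP_RNase and at 44.5, 61.5 and 48.9 CPM in IP_RNase_ProK, a log2 fold change of 0.78 ± 0.14 (SE, edgeR adjusted p = 8.86e-04). Copies of U3 and of 5.8S are near-identical and the counting of reads with several matches is not given, so values of 1 copy are uncertain. The unnamed ENSRNOG00000064998 stood at 13.8, 14.9 and 13.7 CPM and at 24.3, 19.3 and 22 CPM (0.64, edgeR adjusted p = 0.0482).

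Coasy, whose enzyme carries out the last steps of coenzyme A synthesis, stood at 23.6, 31.1 and 31.6 CPM in IP_RNase and at 39.5, 44.6 and 40.8 CPM in IP_RNase_ProK, a log2 fold change of 0.53 ± 0.11 (SE, edgeR adjusted p = 0.0187). Igf2, an insulin-like growth factor, stood at 35.4, 35.3 and 36.0 CPM and at 51.3, 49.5 and 45.3 CPM, a change of 0.46 ± 0.10 (SE, edgeR adjusted p = 0.0187). Neither pair of groups overlapped. Sf3a2, a splicing factor of the U2 particle, changed by 0.50, Plekha4, a protein with a pleckstrin homology domain, by 0.40, Orai2, a calcium channel subunit, by 0.40, and Atcay, the neuronal protein caytaxin, by 0.36, with edgeR adjusted p-values of 0.0273 to 0.0482. Separate ranges with proteinase K higher occurred for 8.36% of all genes. Of the 8 genes, 0 were called when IP_RNase 1 was left out and 1 when counts were scaled by library totals, and DESeq2 called 3.

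The number of nuclear genes called depended on which libraries shared the estimate of the spread. In the fit of all 12 libraries, where the common coefficient of biological variation was 0.0644, 7 genes with a nuclear symbol were called. With the 6 libraries alone it was 0.0522 and 143 of 25905 genes were called (0.552%), 69 higher (0.266%) and 74 lower (0.286%), of which 56 and 18 had a nuclear symbol. With the 9 captured libraries, 177 were called. All but 1 of the 37 calls were kept in the fit of 6 and all 37 in the fit of 9. The nuclear symbols called among the 6 libraries changed by a median of 0.34 in size, between -0.59 and 0.69. Among them were Thy1, a surface glycoprotein of fibroblasts and neurons (0.44, edgeR adjusted p = 0.0165), Myh4, the fast myosin heavy chain (-0.29, edgeR adjusted p = 0.0144), and Col5a2, a fibrillar collagen chain (-0.33, edgeR adjusted p = 0.0351).

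Without regard to calls, nuclear genes changed little. Of the 18914 nuclear genes with a mean of at least 50 counts, 95% changed by between -0.30 and 0.29, 5 fell by more than 1 on the log2 scale and 0 rose by more than 1. Among all 26483 genes tested, mitochondrial and low-count genes included, an unadjusted edgeR p below 0.05 was found for 2346 (8.86%).

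Messages from the nucleus for mitochondrial proteins, which are translated in the cytosol and in part at the organelle's outer membrane, were not called in any list. Of the 33 nuclear subunits of complex I tested 0 passed, with a median of 0.00066. The 38 subunits of complexes II to V had a median of -0.028, the 75 mitochondrial ribosomal proteins -0.029, the 37 genes of mitochondrial transcription and RNA handling -0.039 and the 40 genes of the outer membrane and protein import 0.021, with 0 called in each. The 35 enzymes of fatty acid oxidation and the tricarboxylic acid cycle had a median of -0.028 and the 15 carriers and creatine kinases 0.0058, also with 0 called. The 6-library fit called 0 of these genes too. Over all genes tested, 0.14% were called in the fit of 12 libraries and 0.552% in that of 6. Having 0 calls in lists this short therefore does not set these genes apart.

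The members with the smallest p in these lists show the spread. Mrpl22, of the large mitochondrial ribosomal subunit, stood at 16.7 ± 1.58 CPM in IP_RNase and 11.4 ± 0.680 CPM in IP_RNase_ProK (-0.55, edgeR adjusted p = 0.276), while Mrps26, of the small subunit, stood at 13.1 ± 1.59 and 17.2 ± 0.896 CPM (0.39, edgeR adjusted p = 0.491). Cycs, the electron carrier cytochrome c, stood at 13.9 ± 2.66 and 10.7 ± 2.54 CPM (-0.41, edgeR adjusted p = 0.513). Vdac2, a channel of the outer membrane, stood at 33.5 ± 3.38 and 29.7 ± 1.51 CPM (-0.17, edgeR adjusted p = 0.675; SD, n = 3 for each of these values). None of these differences passed the test.

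The cytosolic translation machinery, which meets the organelle from outside, was not called either, beside 0.14% of all genes tested. The 85 cytosolic ribosomal protein genes tested had a median of 0.047, with 0 called, and the 32 translation factors 0.020, with 0 called. Rps15, of the small ribosomal subunit, stood at 10.5 ± 1.25 CPM in IP_RNase and 13.9 ± 0.525 CPM in IP_RNase_ProK (SD, n = 3 each), a difference of 0.41 (edgeR adjusted p = 0.443). Nuclear-encoded rRNA took 0.0777% ± 0.0111 and 0.0819% ± 0.00381 of counts (exact permutation p = 0.6), and of its 41 genes tested the 5.8S copy alone was called.

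Noncoding RNAs of the nucleus that have been looked for in mitochondria were low. Rpph1, the RNA of nuclear RNase P, stood at 7.7, 5.5 and 15.6 CPM in IP_RNase and at 6.1, 8.9 and 3.6 CPM in IP_RNase_ProK, with overlap (log2 fold change -0.65, edgeR adjusted p = 0.532), against 446, 287 and 279 CPM in crude_RNase. Rn7sl1, the RNA of the signal recognition particle, stood at 3.0, 1.7 and 2.1 CPM and at 2.0, 2.7 and 0.9 CPM (edgeR adjusted p = 0.980), against 71.8, 32.7 and 1081 CPM in crude_RNase, where 1 library was far above the others. Neither difference passed the test. Of all genes tested 0.14% were called, which is the share to set beside the lists that follow. The 33 genes of the signal recognition particle, Y, vault and 7SK RNAs had a median of -0.18, with 24 below 0 and 0 called, the 84 small nucleolar and Cajal body RNAs -0.13, with the U3 copy called, the 205 spliceosomal RNAs -0.027, and the 185 microRNA genes -0.027, with 0 called in these last lists.

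In the fit of 12 libraries 0 genes were called in the lists of muscle genes and of markers of other cell types. As 0.14% of all genes tested were called, lists this short would hold few calls in any case. The 44 sarcomere genes had a median of -0.00036, the 22 genes of the T-tubule and sarcoplasmic reticulum 0.034, the 25 of glycolysis and glycogen breakdown -0.019 and the 29 endoplasmic reticulum genes -0.017. The medians were 0.046 for 24 matrix and fibroblast genes, 0.024 for 14 endothelial genes, 0.011 for 12 genes of smooth muscle and pericytes and 0.025 for 19 genes of macrophages and leukocytes. They were -0.030 for 9 erythroid, 0.073 for 12 adipocyte and -0.027 for 10 satellite cell genes. The 13 Schwann cell and nerve genes had the highest median, 0.13, beside 0.14 for mitoplast_RNase against IP_RNase. They took 0.0595% to 0.0643% of counts in IP_RNase and 0.0660% to 0.0703% in IP_RNase_ProK. Such a higher share without overlap was found for 9 of the 30 lists. Among them were lists with a median above 0, as for cytosolic ribosomal proteins, adipocytes and matrix and fibroblasts. Others had a median below 0: mitochondrial transcription and RNA handling (-0.039), erythroid (-0.030) and endoplasmic reticulum (-0.017). The share of all nuclear protein-coding genes was also higher without overlap (74.5% ± 3.11 against 78.3% ± 0.604, SD, n = 3 each), while the mitochondrial mRNA share was lower. None of the 13 Schwann cell and nerve genes was at 0 in all 6 libraries. Prx, a myelin protein, stood at 52.9 ± 7.07 and 64.7 ± 0.377 CPM (SD, n = 3 each; 0.29, edgeR adjusted p = 0.253), and the part of nerve RNA in any result was not tested. Of the 10 erythroid genes in the list, Hbb-bs, a beta globin, was the only 1 at 0 in all 6 libraries. The list had a median of 71.5 counts per gene and library.

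**Figure D5:**
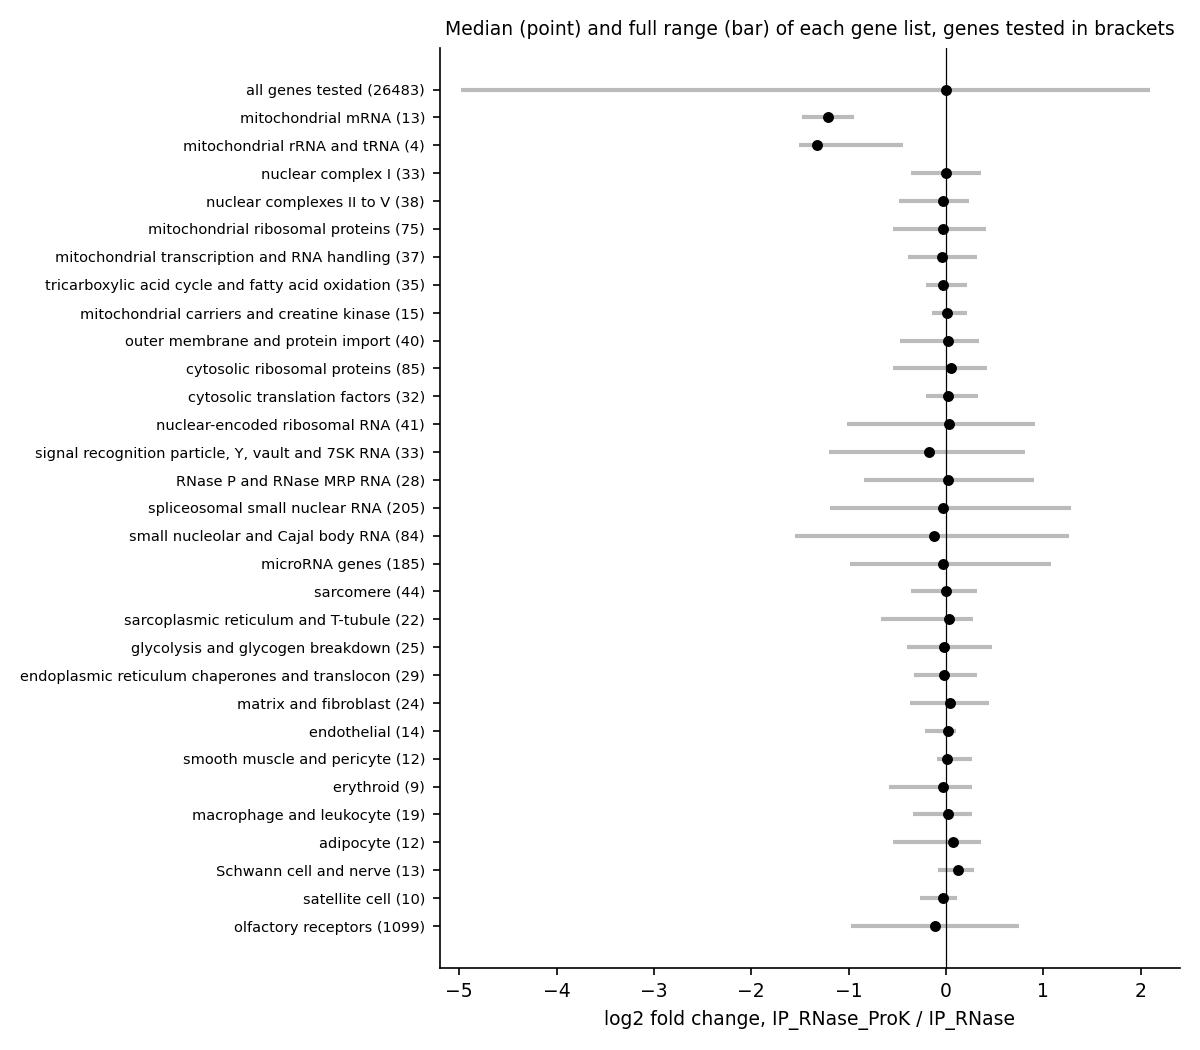
Median (point) and full range (bar) of the log2 fold change of IP_RNase_ProK over IP_RNase (x axis) for each gene list (y axis), with the number of genes tested in brackets. The mitochondrial mRNA list and the 4 mitochondrial rRNA and tRNA genes have medians of -1.21 and -1.33, and the medians of the other lists lie between -0.18 and 0.13.

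Olfactory receptor genes leaned downward as a class. Of 1099 tested, 782 lay below 0, against 13392 (50.6%) of all 26483 genes tested, and their median was -0.12. At an unadjusted edgeR p below 0.05, 76 were lower and 8 higher. Among all 26483 genes, 1184 were lower and 1162 higher at that limit. None of the olfactory receptor genes passed the adjusted test. The median of the class was -0.11 for mitoplast_RNase against the same IP_RNase libraries, and -0.0086 for mitoplast_RNase against IP_RNase_ProK. Olr59 stood at 33.1 ± 3.43 CPM in IP_RNase and 25.5 ± 0.795 CPM in IP_RNase_ProK (SD, n = 3 each; -0.38, edgeR adjusted p = 0.237). The class took 1.74%, 1.60% and 1.49% of all counts in IP_RNase and 1.56%, 1.58% and 1.55% in IP_RNase_ProK, with overlap (exact permutation p = 0.7). The sign of that difference turned without IP_RNase 1. All counts include the mitochondrial ones, which took 10.9% in IP_RNase 3 and 2.06% to 3.36% in IP_RNase_ProK. Relative to counts outside the mitochondrial chromosome, each proteinase K library was below each IP_RNase library.

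Nuclear genes with promoters of the lowest GC content leaned slightly downward, and a few promoters are shown for that reason. Of 16545 nuclear protein-coding genes tested, 81.7% had a RefSeq promoter of build GRCr8 (250 bases before to 50 after the start, the first listed where there were several). In the lowest of 5 equal bins by GC content, 23.3% to 50%, the median log2 fold change was -0.039 and 59.4% of genes were below 0. In the other bins the medians were 0.017 to 0.032, without a steady rise with GC content, and 40.8% to 45.3% were below 0. Olfactory receptor genes and genes of low count were not set apart, so their part in this was not tested. Across genes Pearson's r was 0.16, a description over genes that share the same 6 libraries. The 367 genes below -0.3 had a median promoter GC of 48.7%, the 349 above 0.3 had 58.7%, and all had 59.0%.

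Igf2, with a smaller p than Coasy, has more than 1 promoter in the table and is not shown. The promoters below belong, among genes with 1 promoter in the RefSeq table, to the 2 nuclear protein-coding genes with the smallest p in each direction among those with a mean of at least 50 counts, with CG in capitals. Coasy (chr10:86514690-86514989, plus strand) and Plekha4 (chr1:105142268-105142567, plus strand) rose, Tnc (chr5:82476082-82476381, minus strand) fell, and Cntn5, a neuronal adhesion molecule (chr8:15731908-15732207, minus strand), just missed the threshold at 56.7 ± 1.52 against 43.7 ± 0.656 CPM (SD, n = 3 each; -0.38, edgeR adjusted p = 0.0512).
Coasy: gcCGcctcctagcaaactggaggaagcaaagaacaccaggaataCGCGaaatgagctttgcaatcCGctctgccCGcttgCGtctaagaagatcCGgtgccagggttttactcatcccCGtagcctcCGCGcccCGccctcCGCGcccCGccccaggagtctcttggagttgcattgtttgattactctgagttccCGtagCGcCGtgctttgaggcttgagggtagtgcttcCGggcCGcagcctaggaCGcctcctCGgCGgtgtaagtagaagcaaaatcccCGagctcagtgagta
Plekha4: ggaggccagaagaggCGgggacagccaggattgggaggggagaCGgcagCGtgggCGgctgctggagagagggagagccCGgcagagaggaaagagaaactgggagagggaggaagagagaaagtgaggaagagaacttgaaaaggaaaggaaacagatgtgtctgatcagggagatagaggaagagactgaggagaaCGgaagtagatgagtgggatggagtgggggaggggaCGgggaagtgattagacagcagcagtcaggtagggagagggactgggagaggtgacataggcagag
Tnc: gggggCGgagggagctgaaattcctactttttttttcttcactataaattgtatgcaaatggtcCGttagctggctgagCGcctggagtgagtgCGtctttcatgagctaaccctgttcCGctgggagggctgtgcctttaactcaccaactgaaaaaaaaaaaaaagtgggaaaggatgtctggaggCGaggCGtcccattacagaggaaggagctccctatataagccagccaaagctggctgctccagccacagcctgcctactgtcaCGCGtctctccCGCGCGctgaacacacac
Cntn5: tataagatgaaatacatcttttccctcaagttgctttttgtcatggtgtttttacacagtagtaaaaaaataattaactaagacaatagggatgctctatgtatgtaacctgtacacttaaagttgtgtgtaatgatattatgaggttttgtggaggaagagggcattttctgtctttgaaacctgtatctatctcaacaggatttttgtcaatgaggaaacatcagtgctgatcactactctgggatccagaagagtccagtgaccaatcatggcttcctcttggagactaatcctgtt
CG occurs 23 times for Coasy, 7 for Plekha4, 12 for Tnc and 0 for Cntn5, and 78.9%, 46.5%, 60.2% and 0% of the 27457 promoters of this length hold fewer. The 4 promoters do not order by direction, since that of Tnc holds more CG than that of Plekha4.

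The libraries with proteinase K were next set beside the mitoplasts, the preparation most like them. No gene was called between mitoplast_RNase and IP_RNase_ProK (0 of 26483, 0%, edgeR adjusted p below 0.05), 741 (2.80%) had an unadjusted p below 0.05, and DESeq2 called 0. In the fit of the 9 captured libraries 6 genes were called, all higher in mitoplasts, and 2 without IP_RNase 3. The 13 mitochondrial mRNAs differed by -0.22 (Mt-nd3) to 0.11 (Mt-atp8) between these groups. The mRNAs took 1.89%, 1.84% and 1.51% of counts in mitoplast_RNase, which overlaps the 1.49% to 2.07% of IP_RNase_ProK. The 2 rRNA genes were higher in mitoplasts by 0.64 and 0.66, without passing the test. ENSRNOG00000069946 stood at 66.2, 68.4 and 53.7 CPM in mitoplast_RNase, against 60.2 to 68.5 CPM with proteinase K, so the groups overlapped.

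The comparisons of IP_RNase_ProK and of mitoplast_RNase with IP_RNase share the same 3 IP_RNase libraries, so they are not independent. In the latter 41 genes were called (0.155%), 6 higher (0.0227%) and 35 lower (0.132%). Mt-co3 changed by -1.48 with proteinase K and by -1.53 in mitoplasts, ENSRNOG00000068515 by -1.30 and -1.31, and the 5.8S copy by 0.78 and 0.83. Coasy changed by 0.53 and by 0.21, and Tnc by -0.33 and -0.25, the mitoplast values of both not passing the test (edgeR adjusted p = 0.594 and 0.277).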

How the data were processed

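The submitters' processing notes name HTSeq, STAR 2.7.11a, cutadapt 4.6 and FastQC 0.74, and the build mRatBN7.2. The annotation release, strand setting and rule for multiply aligned reads are not given in the sources that were used. The deposited values are raw read counts, whole numbers per Ensembl gene per the file headers, and 6515 of 30560 genes have no name. Columns were matched to library descriptions.

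The counts of all 12 libraries were fitted in 1 model of 4 groups with edgeR 4.0.16 (R 4.3.3; TMM, filterByExpr with a minimum count of 10, quasi-likelihood F test, Benjamini-Hochberg over all genes tested, threshold 0.05). CPM use effective library sizes. The SE is the absolute log2 fold change divided by the square root of F, which uses spread pooled over genes, so it can be smaller than a gene's own replicates imply. Scripts were tested on simulated data. Shares were compared by exact permutation over libraries. RefSeq of GRCr8, another build, gave biotypes and promoters only.

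Named genes were, per direction, the 10 largest called changes (mean of at least 50 counts, separate ranges), the 6 smallest p, the mitochondrial mRNAs, the 2 most counted mitochondrial rRNA genes, Rpph1, Rn7sl1 and, in each list, up to 3 genes of smallest p, of which some are described. Tnc, Cntn5, Acta1, Hbb-bs and the 2 genes with clone names were named after their values were seen. The members, lists and tests were chosen with earlier results of these data known. Names of mitochondrial rRNA and tRNA, small nucleolar and ribosomal RNA genes were matched after seeing the table. Alternatives were DESeq2 1.42.0, other scalings, filters and libraries in the model, a replicate block and leaving out each library. PCR copies are not independent molecules.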

Additional observations from a re-analysis of the deposited data

How the results depend on the processing

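The calls on mitochondrial mRNA held more widely than those on nuclear genes: 11 to 13 of the 13 were called lower in every alternative. Against 37 calls (8 higher, 29 lower), 143 (69 and 74) were made with the 6 libraries alone and 177 (86 and 91) with the 9 captured libraries, 23 (1 higher) with library size scaling, and 5 and 4 higher with DESeq2 and the replicate block. Leaving out 1 library gave 24 to 35 calls, 0 to 8 higher and 22 to 32 lower. The lowest count of higher calls, 0, was without IP_RNase 1, and the total was 24 both without IP_RNase 1 and without IP_RNase_ProK 1. Of the 8 genes called higher, 1 kept the call with library size scaling, 4 with scaling on olfactory receptor genes, 4 with the replicate block, 3 with DESeq2 and 0 to 5 when a library was left out. Of the 12 unnamed genes called lower, 7 kept the call with DESeq2 and 9 to 11 without 1 library. Between mitoplast_RNase and IP_RNase_ProK, 6 genes were called, all higher, in the fit of 9 libraries, and 0 to 2 without 1 library. ENSRNOG00000030478 changed by -1.80 to 0.013 when a library was left out, the last without IP_RNase 3. The difference in share was -0.00097 to 0.0101 percentage points for nuclear rRNA and -0.103 to 0.0232 for olfactory receptors, each turning its sign without IP_RNase 1, and the share of Mt-nd4 differed by -0.0869 points with rRNA and tRNA in the total. The cause was not tested in any of these cases, other than that fewer libraries enter. Correlations of deviations of same-numbered libraries were 0.00064, 0.0031 and 0.060, against -0.045 to 0.042 for libraries of different number. These small values cannot settle whether the replicate numbers pair the samples. The replicate block gave 33 calls. The counts in olfactory receptor genes limit what a low nuclear count can show.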
